A study of Mus musculus with 12 samples.

Results

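Insulin (Ins1, Ins2), amylin (Iapp), glucagon (Gcg), somatostatin (Sst), pancreatic polypeptide (Ppy), peptide YY (Pyy) and the granule protein chromogranin A (Chga) were followed through the day in whole pancreas of old and young mice. These 8 genes were chosen by symbol from the 40840 genes of the table, with earlier results of these data known. All 8 had a row. Libraries came from Old mice, male C57BL/6J animals of 25 months, and from Young mice, male C57BL/6J animals of 5 months. The labels name no transgene and no drug. Every mouse had been singly housed for 4 weeks on a light-dark cycle with chow and water always present, and tissue was taken in darkness at labelled zeitgeber times of 4, 8, 12, 16, 20 and 24 h. There was 1 library for each age and time, 12 in all. Whether a library is 1 mouse is not stated, so a p-value measures the spread between libraries only.

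Islets are small clusters of endocrine cells scattered through the digestive-enzyme tissue of the pancreas. Beta cells store insulin and amylin, alpha cells glucagon, delta cells somatostatin and PP cells pancreatic polypeptide, each in dense granules that hold chromogranins and are released on demand. Insulin lowers blood glucose and glucagon raises it, and somatostatin restrains both. Mice carry a pair of insulin genes, of which Ins1 arose as a retrotransposed copy of Ins2. In RNA from whole tissue, fewer cells of a type and less RNA per cell cannot be told apart. For that reason the ratio of one hormone to another within a library is given beside each level.

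In GRCm38, RefSeq places Ins1 at chr19:52264297-52265015 on the plus strand and Ins2 at chr7:142678656-142679726 on the minus strand. Iapp lies at chr6:142298425-142303820 (plus), Gcg at chr2:62474530-62483653 (minus), Sst at chr16:23889573-23891342 (minus) and Chga at chr12:102554941-102565027 (plus). Ppy and Pyy are neighbours on chromosome 11, at chr11:102099931-102101319 and chr11:102106676-102107832, both on the minus strand. Each value is a count over the exons of a whole gene. The Iapp locus overlaps Slco1a5 on the opposite strand, which had at most 1 count in any library.

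Promoters from RefSeq (GRCm38.p6) were found for 7 of the 8 members, and Ins2 had none in the table. Each runs from 250 bases before to 50 bases after the start of the gene, 5′ to 3′ on the gene's strand. The promoters of the beta-cell genes Ins1 and Iapp, the alpha-cell gene Gcg and the granule gene Chga are shown because these genes from different cell types moved together. Capitals mark TAAT, the core that many homeodomain factors bind, and CANNTG, the E-box bound by basic helix-loop-helix factors, on either strand.
Ins1, chr19:52264047-52264346: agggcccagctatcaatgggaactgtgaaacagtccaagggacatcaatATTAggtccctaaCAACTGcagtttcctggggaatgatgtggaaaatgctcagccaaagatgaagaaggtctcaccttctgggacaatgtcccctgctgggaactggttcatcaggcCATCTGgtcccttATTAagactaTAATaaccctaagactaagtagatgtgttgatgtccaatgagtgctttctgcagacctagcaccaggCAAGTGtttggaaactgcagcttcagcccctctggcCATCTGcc
Iapp, chr6:142298175-142298474: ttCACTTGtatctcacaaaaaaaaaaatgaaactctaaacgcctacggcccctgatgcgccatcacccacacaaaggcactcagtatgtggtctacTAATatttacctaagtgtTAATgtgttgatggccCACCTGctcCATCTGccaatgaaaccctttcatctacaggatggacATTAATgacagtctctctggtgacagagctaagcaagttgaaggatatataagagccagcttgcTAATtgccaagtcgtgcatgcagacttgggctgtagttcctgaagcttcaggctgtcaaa
Gcg, chr2:62483604-62483903: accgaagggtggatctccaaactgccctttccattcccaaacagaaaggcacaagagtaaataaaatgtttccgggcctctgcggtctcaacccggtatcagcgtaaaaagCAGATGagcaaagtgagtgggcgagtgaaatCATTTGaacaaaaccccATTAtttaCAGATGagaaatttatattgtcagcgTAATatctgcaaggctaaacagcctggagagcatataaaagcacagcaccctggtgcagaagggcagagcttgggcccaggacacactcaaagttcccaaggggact
Chga, chr12:102554691-102554990: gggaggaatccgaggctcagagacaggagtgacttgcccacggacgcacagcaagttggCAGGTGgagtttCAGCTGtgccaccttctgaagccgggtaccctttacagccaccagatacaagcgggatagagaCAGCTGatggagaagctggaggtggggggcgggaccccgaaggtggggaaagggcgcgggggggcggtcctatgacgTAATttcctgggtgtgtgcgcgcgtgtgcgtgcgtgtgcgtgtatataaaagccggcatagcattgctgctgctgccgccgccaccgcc
TAAT matched 3 times in Ins1, 5 times in Iapp (1 pair overlapping), 2 times in Gcg and 1 time in Chga, and 57.9% of 32544 promoters of this length held it. CANNTG matched 4 times in Ins1 and 3 times each in Iapp, Gcg and Chga, against 72.3% of promoters with a match. CACGTG, the E-box form that CLOCK and BMAL1 bind, was in no promoter of these 7 genes and in 7.17% of all. TTATGNAA, a D-box form, was also in none of them and in 3.39% of all. The letters TGACG, from the cyclic AMP response element, matched 2 times, overlapping, in Sst and 1 time in Chga, and in 20.9% of all promoters. AGGTCA, a core that ROR and REV-ERB factors bind, matched 1 time in Ppy and in 16.2% of all. These matches describe letters in a window and nothing about binding.

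Total counts were 1030189 to 1404038 in 11 libraries and 2918805 in Young 4 h. That library stood apart: its 9 markers of central neurons and glia summed to 2774 CPM (counts for each 1000000 counts of the library), against 16.8 to 38.5 CPM in the other 11. Snap25, Syt1 and Slc1a2, markers of nerve cells and astrocytes, had 1065, 961 and 1514 counts there. The 33 digestive-enzyme genes of acinar cells, the markers of this tissue, made up 19.9% of counts in Young 4 h and 34.4% to 47.8% in the others. Each result is therefore given with all 12 libraries and with the 11 that remain without Young 4 h.

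Ins2, the main insulin gene by level, was highest at 16 h in both ages, lowest at 24 h in Old and lowest at 4 and 24 h in Young. Ins2 had 81.9, 136, 99.7, 434, 105 and 14.5 CPM at 4, 8, 12, 16, 20 and 24 h in Old, against 19.5, 32.4, 109, 406, 312 and 21.9 CPM in Young. Old was high at 16 h alone, whereas Young was high at both 16 and 20 h. Over the 11 libraries the highest level was 29.8 times the lowest. A library total of these sizes makes 1 count worth 0.343 to 0.971 CPM, so the lowest Ins2 values rest on 17 counts in Old 24 h and 29 counts in Young 24 h.

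Ins1 had 17.1, 40.0, 39.4, 113, 29.5 and 5.99 CPM in Old, against 7.19, 7.47, 28.1, 121, 95.6 and 6.05 CPM in Young, in the same order of times. The high and low libraries were those of Ins2, and the age groups overlapped. Iapp, whose peptide beta cells release with insulin, had 3.56, 15.7, 16.2, 51.6, 16.8 and 3.42 CPM in Old, against 0.685, 2.49, 17.9, 34.9, 31.6 and 0 CPM in Young. Its 0 at Young 24 h allows up to 2.27 CPM, the level of 3 counts, so its highest level over the 11 libraries was at least 22.7-fold higher than its lowest.

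Gcg, the alpha-cell hormone, had 11.4, 32.2, 38.6, 61.9, 25.5 and 6.85 CPM in Old, against 3.43, 3.32, 14.5, 59.2, 54.6 and 3.78 CPM in Young. Like the insulin genes it was highest at 16 h in both ages, and its range over 11 libraries was 18.7-fold. In Old it was already above 30 CPM at 8 and 12 h. Chga, which helps form granules in all islet endocrine cells and also in neurons and adrenal medulla, had 12.1, 22.7, 19.3, 98.1, 28.7 and 6.85 CPM in Old. In Young it had 201, 4.98, 30.6, 66.0, 62.3 and 1.51 CPM. Apart from Young 4 h its high libraries were the same as those of the hormones.

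**Figure D1:**
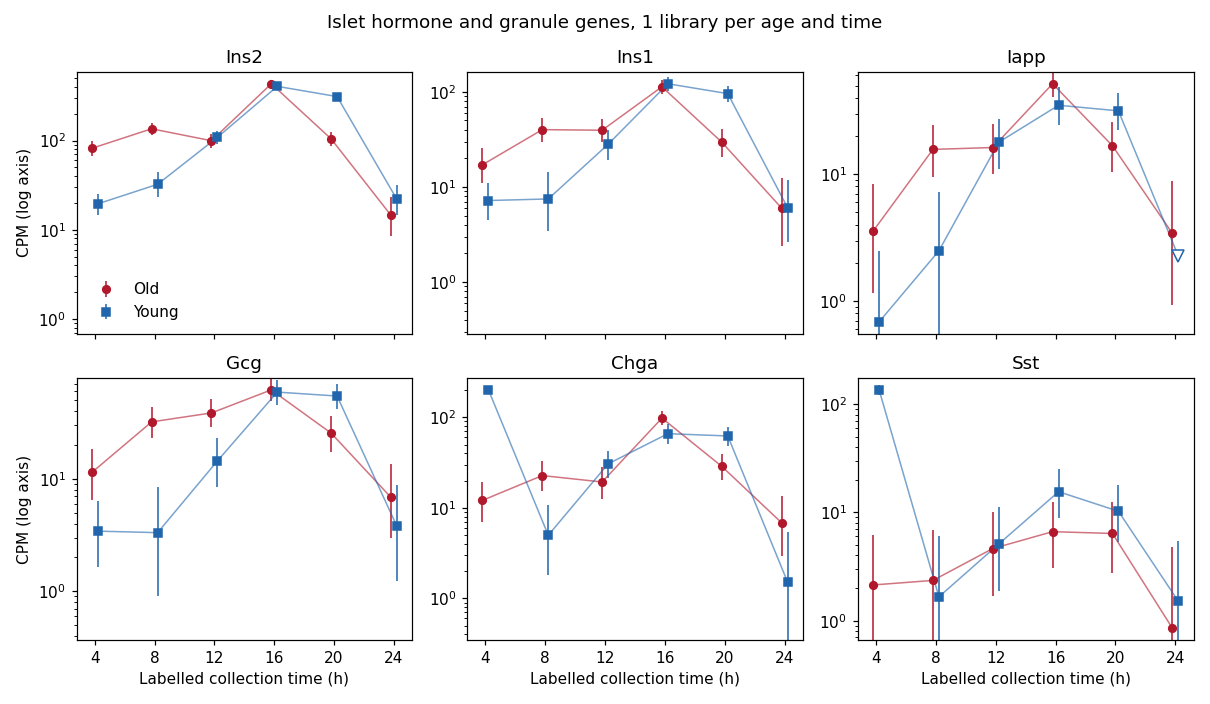
CPM (log axis) of 6 genes against labelled collection time in Old (circles) and Young (squares), 1 library per point, with 95% exact Poisson intervals for counting error; the open triangle marks the level of 3 counts for a count of 0. Ins2, Ins1, Iapp and Gcg reach their highest Old value at 16 h (434, 113, 51.6 and 61.9 CPM), and Chga and Sst in Young 4 h stand at 201 and 135 CPM.

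Somatostatin was sparse outside Young 4 h. Sst had 2.14, 2.35, 4.64, 6.64, 6.39 and 0.856 CPM in Old, against 135, 1.66, 5.10, 15.5, 10.2 and 1.51 CPM in Young. The 11 libraries hold 68 Sst counts in all, from 1 to 16 each, and Young 4 h alone holds 395. Somatostatin is also made by neurons, and the neuronal and glial markers given above were high in that library. Their part in its Sst and Chga was not tested.

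The PP-cell hormone and its relative were barely detected. Ppy had 1 count in Old 24 h and 0 in the other 11 libraries, where 3 counts would be 1.03 to 2.91 CPM. Pyy, found in islets and in gut endocrine cells, had 7 counts over the 6 Old libraries and 4 over the 6 Young ones, at most 2 in a library. The 9 intestinal epithelium markers summed to 0 to 5.99 CPM in the 11 libraries. No change with time or age was detectable for Ppy or Pyy at this depth.

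Per kilobase of exon (GENCODE M21 lengths), the median level over 11 libraries ran from Ins2 at 79.7 CPM per kb through Ins1 at 27.8, Gcg at 17.1, Iapp at 16.7, Chga at 8.25 and Sst at 6.43 to Pyy at 1.17 CPM per kb. Ppy had a median of 0. Within libraries, on this scale, Ins2 was above Ins1, Ins1 above Gcg and Sst above Pyy in 11 of 11. Gcg was above Iapp in 7 of 11, Iapp above Chga in 9 and Chga above Sst in 9, so those neighbours changed places between libraries. The annotation behind the counts is unknown here, and the Ins1 transcript model in GENCODE (1062 bases) is longer than the whole RefSeq gene (719 bases), so the place of Ins1 depends on it.

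The daily pattern was fitted as a 24 h cosine curve in edgeR (quasi-likelihood F test on counts, Benjamini-Hochberg adjustment over all genes tested, threshold 0.05). Ins1, Ins2, Iapp, Gcg and Chga had enough counts to be tested, whereas Sst, Ppy and Pyy did not. In 11 libraries all 5 tested members passed for a curve shared by both ages, against 1.49% of 5852 genes. Amplitudes, as log2 distance from the mean to the peak, were 1.97 for Iapp (adjusted p = 0.000894), 1.84 for Chga (0.000894), 1.71 for Ins1 (0.00328), 1.57 for Ins2 (0.0129) and 1.51 for Gcg (0.0101). The median over all genes was 0.23. Fitted peaks lay between 15.83 h for Ins2 and 16.23 h for Chga.

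With Young 4 h included, no member passed for the shared curve, against 0.155% of 5808 genes. The edgeR adjusted p was then 0.0538 for Iapp, 0.109 for Ins1, 0.131 for Gcg, 0.215 for Ins2 and 0.84 for Chga. The amplitudes of the 4 hormones were larger than without it, at 2.29, 1.86, 1.77 and 1.78 for Iapp, Ins1, Gcg and Ins2, whereas that of Chga was 0.48. Call counts depended on the tool as well. In 11 libraries DESeq2 passed only Iapp (adjusted p = 0.0405), with 0.067 for Chga, 0.166 for Ins1, 0.212 for Gcg and 0.362 for Ins2, against 1.41% of the 4263 genes it gave an adjusted p. In limma-voom all 5 passed, against 1.21% of genes. Without Old 16 h, the edgeR value of Ins2 was 0.174 and the other 4 members still passed.

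Sst entered only with a looser filter. Over 11 libraries, with genes kept at 1 CPM or more in at least 6 libraries, its shared curve had an amplitude of 1.55, a peak at 16.60 h and an edgeR adjusted p of 0.0341. With 12 libraries under the same filter its peak lay at 2.62 h with an adjusted p of 0.882. The Sst peak thus turned round with that 1 library.

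Within an age, all 5 tested members passed in Old over 11 libraries, against 0.752% of genes, and all 5 in Young, against 0.171%. Old amplitudes in that edgeR fit were 1.75 for Iapp, 1.54 for Chga, 1.54 for Ins1, 1.47 for Ins2 and 1.37 for Gcg, with adjusted p from 0.00757 for Gcg to 0.0496 for Ins2. Young amplitudes were 2.87, 2.84, 2.93, 2.63 and 2.95 for the same genes, with adjusted p from 0.000125 for Gcg to 0.0243 for Iapp. Without Old 16 h no member passed in Old, and the Old amplitudes were 0.73 for Chga, 0.77 for Ins2 and 1.01 for Ins1. Without Old 24 h 2 members passed in Old, and without Young 8 h 3 passed in Young. Over 12 libraries, Gcg (0.00459) and Ins1 (0.0312) passed in Young, against 0.0517% of genes, and none in Old, where 0% of genes passed and 201 had an unadjusted p under 0.05.

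Whether the curve differed between the ages depended on the settings. The difference of the curves passed for 0 members and 0% of genes in the edgeR fit used above, with 11 libraries (238 genes under an unadjusted p of 0.05) or 12 (274 genes), and DESeq2 and limma-voom passed 0 members and 0% of genes. With other filters and libraries this call changed. With no filter, edgeR passed 3 members in 11 libraries, against 0.0911% of genes, and 2 in 12, against 0.392%. With genes kept at 1 CPM or more in at least 6 libraries it passed 1 in 11, against 0.0175%. With 1 of the 11 libraries left out it passed 0 to 3. The count was 3 when Old 12 h was dropped, 2 for Old 16 h and 1 for each of Old 4 h, Old 24 h and Young 24 h. Gcg was among the members in each of these cases where any passed. In the first fit Gcg came nearest in 11 libraries, with an edgeR p of 1.49e-05 and an adjusted p of 0.087. Over 11 libraries, cosine curves were also fitted to each age by least squares on log2 values. They put the Gcg peak at 13.7 ± 0.8 h in Old and 17.0 ± 0.6 h in Young (SE). The Ins1 peaks were at 13.7 ± 1.3 h in Old and 16.7 ± 0.6 h in Young. For Ins2 they were at 13.6 ± 2.0 h in Old and 16.5 ± 0.7 h in Young. The peaks of the other members lay closer together. For Iapp they were at 14.7 ± 1.0 h in Old and 15.8 ± 0.8 h in Young. For Chga they were at 15.1 ± 1.7 h in Old and 16.0 ± 0.7 h in Young. Each of these curves rests on 6 libraries in Old or 5 in Young.

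Single times show where Old and Young parted, with 1 library on each side and intervals that cover counting error only. At 8 h Old over Young was 4.19 for Ins2, 5.35 for Ins1, 6.30 for Iapp, 9.68 for Gcg and 4.57 for Chga, each with a 95% interval above 1. At 20 h it was 0.336 for Ins2, 0.309 for Ins1, 0.531 for Iapp, 0.468 for Gcg and 0.461 for Chga, each with an interval below 1. At 16 h it was 1.07 for Ins2, 0.930 for Ins1, 1.48 for Iapp and 1.05 for Gcg, with intervals that include 1, and 1.49 for Chga (1.10 to 2.02). At 12 h Gcg was at 2.67 (1.51 to 4.94), while the others had intervals that include 1. At 4 h, against Young 4 h, it was 4.19 for Ins2, 2.38 for Ins1, 3.33 for Gcg, 5.20 for Iapp and 0.0602 for Chga. All these intervals exclude 1 but that of Iapp. They are for ratios of CPM, and digestive enzymes made up 19.9% of counts in Young 4 h and 47.8% in Old 4 h. On a scale of digestive-enzyme counts built like CPM, Ins1 was 35.7 in Old 4 h and 36.2 in Young 4 h. Gcg was 23.8 and 17.3 on that scale, and Ins2 was 171 and 98.4. The size of the 4 h ratios of these genes therefore depended on the scale. Old was thus higher at 8 h and lower at 20 h in these genes, of which Gcg alone is an alpha-cell gene. The 8 other alpha-cell genes summed at 8 and 20 h to 107 and 135 CPM in Old and 181 and 166 in Young. For 15 beta-cell genes other than hormones the sums were 331 and 410 CPM in Old and 344 and 387 in Young. Slc38a5 made up most of each alpha-cell sum, and Ero1b most of each beta-cell sum. Without Slc38a5, the other 7 alpha-cell genes summed to 12.5 and 3.19 CPM in Old and 16.6 and 16.2 in Young. Without Ero1b and Glp1r, the other 13 beta-cell genes summed to 18.0 and 23.2 CPM in Old and 9.96 and 20.5 in Young. On these few counts, the alpha-cell sum at 20 h and the beta-cell sum at 8 h went the hormones' way, and the others did not.

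**Figure D2:**
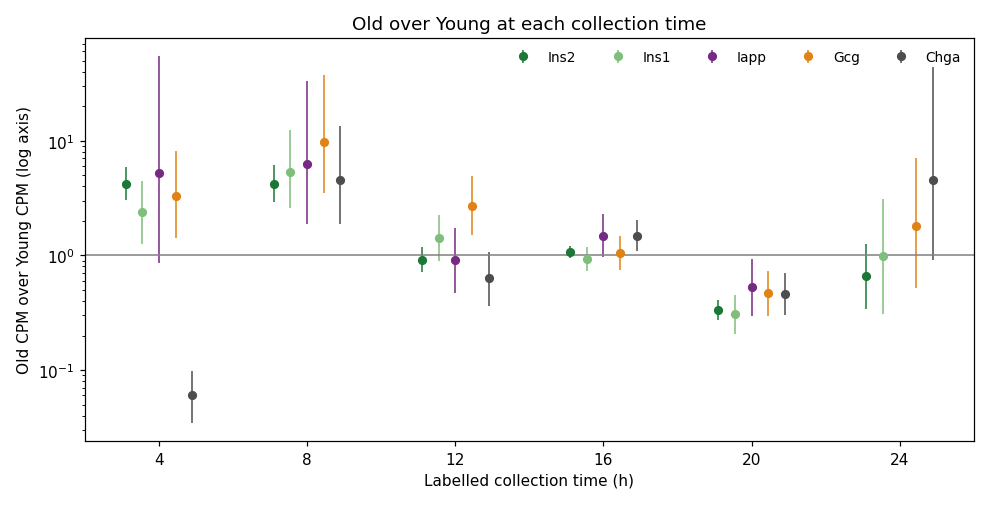
Old CPM over Young CPM (log axis) at each labelled time for 5 genes, with 95% intervals for counting error; 1 library stands on each side, and Iapp at 24 h has no point because Young had 0 counts. All 5 points are above 1 at 8 h (4.19 to 9.68) and below 1 at 20 h (0.309 to 0.531), and Chga at 4 h (0.0602) rests on the Young library with high neuronal markers.

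Averaged over the day, no member passed the age test. With the curve as a covariate over 11 libraries, the edgeR log2 fold change of Old over Young was 0.09 ± 0.38 for Ins1, 0.23 ± 0.43 for Ins2, 0.34 ± 0.37 for Iapp, 0.49 ± 0.37 for Gcg and 0.27 ± 0.36 for Chga (SE). None passed, against 0.205% of genes, none had an unadjusted p below 0.197, and all adjusted p were 0.928 or above. Over 12 libraries none passed either, against 0.0172% of genes, and Chga was at -0.92 ± 0.78. The signs of Ins1 and Ins2 turned negative in fits without the time term, and that of Chga in 11 libraries did too. In 11 libraries Ins1 and Ins2 were also negative with collection time as a block, and Ins1, Ins2 and Chga when some single libraries were left out, Old 16 h among them.

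Ins1 and Ins2 stayed in nearly fixed proportion while their levels moved about 20-fold and more. Ins1 over Ins2 was 0.209, 0.295, 0.395, 0.260, 0.282 and 0.412 at 4 to 24 h in Old, against 0.368, 0.231, 0.258, 0.299, 0.307 and 0.276 in Young. The variation of this ratio over 11 libraries was no more than counting gives, with a chi-square per degree of freedom of 0.889. The transcripts are 91.2% identical over 456 aligned bases and the longest identical run is 55 bases, shorter than a read of 100 bases. How reads matching both genes were counted is not stated, so the split between them is uncertain.

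The alpha- to beta-cell hormone ratio moved more. Gcg over Ins2 was 0.139, 0.237, 0.388, 0.143, 0.244 and 0.471 in Old, against 0.175, 0.103, 0.133, 0.146, 0.175 and 0.172 in Young. The Young libraries lay close together, while Old 8, 12, 20 and 24 h were above every Young library and Old 4 and 16 h were among them. Its chi-square per degree of freedom was 4.26 over 11 libraries. The mean log2 ratio was -2.01 ± 0.72 in Old (SD, n = 6) and -2.74 ± 0.29 in Young (SD, n = 5), a difference of 0.73 with an exact two-sided permutation p of 0.0714, adjusted over the ratios tested to 0.143. Over 12 libraries the difference was 0.68 (exact permutation p = 0.0498, adjusted p = 0.0996), and the smallest p this design allows is 0.00216. Both tests exchanged the age labels over all libraries, without pairing Old and Young by collection time.

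Counted together, insulin transcripts made up 86.9%, 78.6%, 71.7%, 82.8%, 76.0% and 66.7% of Ins1, Ins2, Iapp and Gcg counts in Old. In Young they made up 86.7%, 87.3%, 80.9%, 84.8%, 82.5% and 88.1%. Glucagon made up 19.9% in Old 12 h (Wilson 95% interval 15.4% to 25.3%), against 8.54% in Young 12 h (5.40% to 13.3%). At 16 h, the best-counted time, its share was 9.39% in Old (7.64% to 11.5%) and 9.53% in Young (7.49% to 12.1%). The sum of these hormone counts spanned 30.8 to 660.1 CPM over the 12 libraries, a far wider range than the shares.

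Neither tested ratio passed a test for a daily curve. A 24 h curve took up 9.39% of the variance of log2 Ins1 over Ins2 about the age means and 8.90% of that of Gcg over Ins2, in 11 libraries. The exact permutation p values were 0.708 and 0.705, from 86400 orders of the times within each age, and over 12 libraries they were 0.85 and 0.666. The ratio of Iapp to Ins2 ranged up to 0.235 in Old 24 h with a chi-square per degree of freedom of 2.06, and that of Chga to Ins2 had 1.91. Chga over Ins2 was 0.148 to 0.471 in Old and 0.0690 to 0.281 in Young without the 4 h library, which stood at 10.3.

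**Figure D3:**
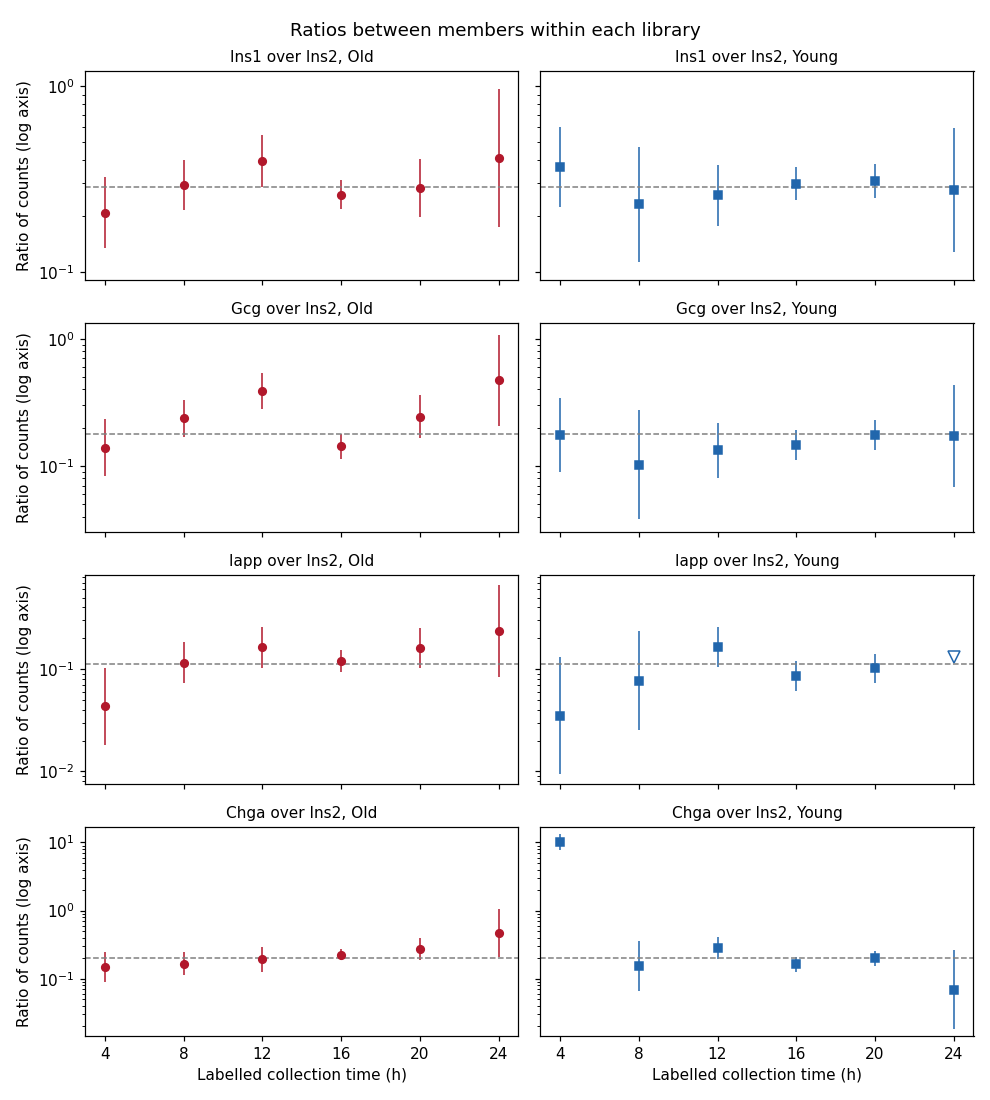
Ratio of counts to Ins2 (log axis) for Ins1, Gcg, Iapp and Chga by labelled time, Old on the left and Young on the right, 1 library per point with 95% Wilson-based intervals; the dashed line is the pooled ratio over 11 libraries and the open triangle the upper bound for a count of 0. Ins1 over Ins2 stays near 0.286, Gcg over Ins2 reaches 0.388 in Old 12 h, and Chga over Ins2 is 10.3 in Young 4 h.

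In Young 4 h, ratios among the insulin genes and Gcg lay among those of the other libraries. Its Ins1 over Ins2 was 0.368 and its Gcg over Ins2 0.175, both within the range of the other 11, whereas Sst over Ins2 was 6.93 there and at most 0.0690 elsewhere. Sst over Gcg was 39.5 there, against 0.0732 to 0.5 in the others. Set against digestive-enzyme counts, Ins2 in Young 4 h was 98.4 counts on a scale of enzyme counts that is built like CPM. On that scale Ins2 was 171, 287, 222, 939, 252 and 42.2 in Old, and 68.9, 306, 1039, 772 and 56.4 in Young at 8 to 24 h. On that scale Old 16 h lay below Young 16 h, Old 8 h lay below Young 12 h, and Young 4 h lay above Young 8 h and Young 24 h, each the reverse of the order by CPM.

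Across libraries, log2(CPM + 1) of Ins2 and Ins1 correlated with Pearson's r = 0.983 and Spearman's rho = 0.955 over 11 libraries (permutation p = 1e-05, the smallest that 100000 draws can give, and 2e-05). For Ins2 and Gcg, r was 0.916 and rho 0.9 (permutation p = 0.00012 and 0.0004). Both r values changed little without Old 24 h and Young 24 h, the pair farthest from the median of Ins2, at 0.983 and 0.91. Over 12 libraries r was 0.984 for Ins1 and 0.929 for Gcg. Within Old (n = 6), r was 0.974 for Ins1 and 0.902 for Gcg (exact permutation p = 0.00417 and 0.00556), and without Old 16 h and Old 24 h it was 0.803 and 0.701. Within Young (n = 6, Young 4 h included), r was 0.993 and 0.988 (exact permutation p = 0.00417 and 0.00972). These p values stayed at 0.00972 or below for r after adjustment over the 8 relations computed, and for rho of Gcg within an age they were 0.0583.

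**Figure D4:**
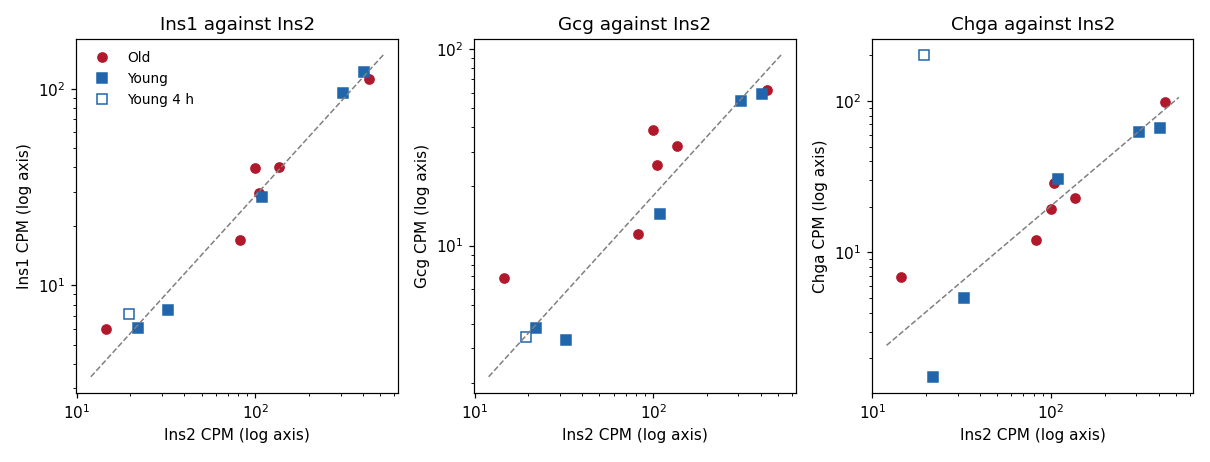
CPM of Ins1, Gcg and Chga against CPM of Ins2 (log axes), 1 point per library, Old as circles and Young as squares with Young 4 h open; the dashed line is the pooled ratio over the other 11 libraries. Ins1 follows the line over a 29.8-fold range of Ins2, Gcg lies above it in Old 8, 12, 20 and 24 h, and Chga in Young 4 h (201 CPM) lies far above it.

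The gene most like the tested members was Scg2, secretogranin II, another granule protein. Its r with their mean log2 CPM was 0.956 over 11 libraries, among 5709 genes compared. The members themselves had 0.97 to 0.99, but each member is part of that mean and Scg2 is not. Scg2 had 3.56, 11.8, 7.73, 29.5, 8.78 and 1.71 CPM in Old, against 0.830, 6.81, 13.6, 9.39 and 0.757 CPM in Young at 8 to 24 h, and 555 CPM in Young 4 h. Its shared curve passed in 11 libraries (amplitude 1.59, edgeR adjusted p = 0.017) and not in 12 (adjusted p = 0.733). The genes next in order were Psme3ip1 and Btaf1, both with r = 0.856, Pitpna with 0.836, Socs7 and Polr3k with 0.827, Atp5g3 with 0.826 and Adi1 with 0.817. None of these 7 passed the curve test.

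Of 14 other granule and prohormone-processing genes, 4 could be tested and Scg2 alone passed in 11 libraries, against the 1.49% of all genes. Cpe, the carboxypeptidase that trims prohormones, had an amplitude of 0.61 and an edgeR adjusted p of 0.6. The median amplitude of the 4 was 0.35, against 0.23 for all genes. In 12 libraries none of the 4 passed. The 10 granule genes below the filter, among them Chgb, Scg3 and Pcsk2, summed to 9.97, 24.3, 19.3, 45.7, 19.2 and 16.3 CPM in Old. In Young they summed to 1504, 8.30, 16.2, 43.7, 31.6 and 9.08 CPM, so Old 16 h and Young 16 h were again the highest outside Young 4 h.

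Other islet genes were sparse. Of 15 beta-cell genes other than hormones, 2 (Ero1b and Glp1r) were tested for the shared curve in 11 libraries. None passed, against 1.49% of all genes, with 1 at an unadjusted p under 0.05 in edgeR. Ero1b had 258 CPM in Old 24 h, where Ins2 had 14.5 CPM, and which cells its counts come from was not tested. The 13 below the filter summed to 24.2, 18.0, 13.9, 31.0, 23.2 and 12.8 CPM in Old, against 55.8, 9.96, 19.6, 36.9, 20.5 and 14.4 CPM in Young. Their highest level without Young 4 h was 36.9 CPM and their lowest 9.96 CPM, a narrower range than that of Ins2. Of 8 alpha-cell genes other than Gcg, 1 (Slc38a5) was tested and 0 passed, and 0 had an unadjusted p under 0.05. Slc38a5 had 74.4 CPM in Old 24 h, where Gcg had 6.85 CPM. None of 4 delta-cell genes and none of 7 endocrine transcription factors had enough counts for the fit.

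Markers of other cell types were set beside the hormones. In 11 libraries, 0 of 27 tested acinar enzyme genes passed for the shared curve, and 2 had an unadjusted p under 0.05. The 14 immune genes summed to 928 CPM in Old 24 h, where hormones were lowest in Old, and to 57.5 to 258 CPM in the other 10 libraries. Of these, 7 were tested, and 4 passed for the curve in Old, against 0.752% of all genes. For the shared curve 2 passed in edgeR, against 1.49% of all genes: H2-Aa, an antigen-presenting molecule, with a peak at 1.63 h (amplitude 1.12, adjusted p = 0.0263) and Ighm, an immunoglobulin chain, with a peak at 23.74 h (amplitude 1.55, adjusted p = 0.0363). The 8 fibroblast and stellate genes summed to 296, 273, 262, 98.8, 232 and 507 CPM in Old, against 216, 298, 496, 536, 358 and 372 CPM in Young. They were lowest in Old at 16 h, where the hormones were highest, and highest in Young at 16 h. Of 7 tested, the collagen genes Col3a1 (peak 3.26 h, adjusted p = 0.00763) and Col1a1 (peak 1.5 h, adjusted p = 0.0396) passed for the curve in Old over 11 libraries in edgeR. None passed for the shared curve, where 2 had an unadjusted p under 0.05. By the edgeR age test over 11 libraries, which 0.205% of all genes passed, Col3a1 was lower in Old (log2 fold change -1.31, adjusted p = 0.00607). In that test 1 of the 27 acinar enzyme genes also passed, lower in Old, and 7 had an unadjusted p under 0.05. Over 12 libraries none of either list passed it. The 6 enteroendocrine markers summed to 0 to 2.27 CPM in the 11 libraries and 40.8 CPM in Young 4 h. Nts alone stood at 39.4 CPM there (115 counts), Cck and Sct had 2 counts each, and Gip, Neurog3 and Ghrl had 0. The 4 adrenal chromaffin markers summed to 1.42 to 9.84 CPM in the 11 libraries and 35.6 CPM in Young 4 h, with Pnmt at 0 there. The part of the cell makeup of each tissue piece in the hormone levels was not tested.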

How the data were processed

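RNA from whole pancreas was sequenced in 12 libraries. The values are counts per gene symbol as deposited by the authors, made with STAR and HTSeq on GRCm38 (mm10), per the submitters' processing notes. Not given in the sources used here: annotation, strand setting, multi-mapped reads. All RNA had an integrity number above 8, per the labels' protocols. Of 40840 symbols, 39350 matched RefSeq GRCm38.p6 names, and all 12 columns matched a sample. The members and the 15 marker lists were chosen with earlier results of these data known. The rule for named genes took all 8 members, the 8 most correlated genes other than predicted ones, and list members that passed a test.

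CPM is a count divided by the library total and scaled to 1000000. Counts were tested in R 4.3.3 with edgeR 4.0.16 (TMM scaling, filterByExpr by age, quasi-likelihood F test) with age and a 24 h cosine and sine term, shared or by age. Adjusted p values cover all genes tested. Alternatives were RLE scaling, TMM without digestive enzymes, other filters, DESeq2 1.42.0, limma-voom 3.58.1, other designs and leaving out each library. Ratios used counts plus 0.5 and exact permutations (scipy 1.17.1), where both genes had 3 counts or more in every library. Intervals are 95% and cover counting error only, since each age and time had 1 library. Reads carried no molecular identifiers. Totals of 1030189 to 2918805 counts limit genes of few counts. The fits were tested on simulated data.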

Additional observations from a re-analysis of the deposited data

Results flagged for a closer look

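Of 40 groups of 4 to 10 libraries tested for 1 library far from the rest (Dixon's ratio), chance flags about 1 in 20, and 10 were flagged. In Old, the 16 h library stood above the other 5 for Ins1 (112.84 CPM), Ins2 (433.64 CPM), Iapp (51.624 CPM) and Chga (98.085 CPM). These genes move together, so the 4 flags are not independent, and the other Old libraries reached at most 40.0, 136, 16.8 and 28.7 CPM. Old 24 h was flagged for Ppy on 1 count (0.85566 CPM).

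In Young, the 4 h library stood above the rest for Sst (135.33 CPM) and Chga (201.11 CPM). The same library was flagged for log2 ratios of Sst over Ins2 (2.782), Chga over Ins2 (3.353) and Sst over Gcg (5.2352). Its neuronal and glial markers summed to 2774 CPM, and their part in these values was not tested.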

How the results depend on the processing

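Depth limits Sst, Ppy and Pyy, and each age and time has 1 library, so calls rest on few libraries. With all 12 libraries, members passing the shared curve went from 0 to 1 with TMM without digestive enzymes, 4 with no filter, 1 with the filter of 1 CPM in at least 6 libraries, 3 with DESeq2 and 1 with limma-voom, and ranged from 0 to 5 when 1 library was left out (5 without Young 4 h, 3 without Old 8 h, 1 without Young 20 h). The Young curve had 2 and gave 4 with no filter, 4 with that filter, 4 with DESeq2, 1 with limma-voom and 0 in a separate fit of that age, which tested 1 member, and 1 to 5 with a library left out (5 when Young 4 h was dropped, 4 when it was Young 8 or 24 h, 1 when Young 12, 16 or 20 h was dropped and 1 when Old 4, 8 or 20 h was dropped). The Old curve had 0, then 1 with no filter and 0 to 5 with a library left out (5 without Young 4 h). The difference of curves had 0, then 2 with no filter.

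With 11 libraries, from 5 members, the shared curve gave 1 with DESeq2 and 4 to 5 with a library left out. The Young curve gave 1 with DESeq2, 3 with limma-voom, 1 in a separate fit and 3 to 5 with a library left out. The Old curve gave 1 with DESeq2, 2 with limma-voom, 0 in a separate fit and 0 to 5 with a library left out (0 without Old 16 h, 2 without Old 24 h). The difference of curves, from 0, gave 3 with no filter, 1 with the filter of 1 CPM and 0 to 3 with a library left out (3 without Old 12 h, 2 without Old 16 h, 1 without Young 24 h, Old 4 h or Old 24 h). Hormone ratios passing the age test in 12 libraries went from 0 to 1 without Old 4 h or without Old 16 h, a range of 0 to 1.

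Directions turned for some values that passed no test. The Chga curve in Young over 12 libraries had an amplitude of 0.51 and a peak at 16.5 h with limma-voom and 0.27 to 2.84 with a library left out. Its difference between ages spanned 1.19 to 2.56. The age effect over 12 libraries was -0.0278 for Ins2 and -0.0708 for Ins1 with no time term, and -1.47 to 0.27 for Chga with a library left out. Over 11 libraries with no time term it was -0.277 for Ins2, -0.0527 for Chga and -0.327 for Ins1. With collection time as the replicate block it was -0.0720 for Ins2 and -0.00929 for Ins1. With a library left out it spanned -0.0500 to 0.675 for Ins2, -0.244 to 0.558 for Ins1 and -0.0374 to 0.756 for Chga. The age difference of log2 Ins1 over Ins2 in 12 libraries spanned -0.0392 to 0.164. The other scalings moved the median gene by at most 0.004 on the log2 scale. A minimum of 10 counts left no ratio. With no minimum count, an alternative chosen after seeing the data, 6 ratios entered and none passed, with Sst over Gcg nearest (exact permutation p = 0.0152 in 11 libraries, adjusted p = 0.0909). The cause was not tested for any of these.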
